A study of Mus musculus with 24 samples.

Results

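Wild-type bone marrow-derived macrophages (BMDMs) were compared after lipopolysaccharide (LPS) and after phosphate-buffered saline (PBS). Members were the 6 libraries that titles (which name no knockout) and library names give as wild-type BMDMs, 3 with PBS and 3 with LPS, out of 24 libraries in the series. The series also holds 6 libraries of Olfml3 knockout BMDMs, treated in the same manner, and 12 of the RAW264.7 macrophage line. Knockout mice were made with CRISPR-Cas9 on the C57BL/6 background. Leg bone marrow of C57BL/6 mice (male, 8 weeks) was the source of the cells. Conditioned medium of L929 cells, which supplies macrophage colony-stimulating factor, drove their differentiation in IMDM over 6 days. Stimulated cultures received 100 ng/mL of LPS over 4 h, and the wild-type cells carried no other alteration. The genotype tag of the 3 wild-type LPS libraries reads knockout and that of the 3 knockout PBS libraries reads WT, in both cases against titles and library names. Titles were followed. How many mice gave the 3 cultures of a group is not stated, so the p-values below measure the spread between these libraries, which may be technical.

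LPS is a glycolipid of Gram-negative bacteria. On macrophages it is handed by CD14 to the receptor pair TLR4 and MD-2. TLR4 signals through MyD88, which leads to NF-kappaB and AP-1 and to cytokine genes, and through TRIF, which leads to IRF3, interferon-beta and, through the interferon receptor, to interferon-stimulated genes. NF-kappaB also drives its own inhibitors, which end the first wave of transcription.

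Levels are given as scaled FPKM, the deposited FPKM (fragments per kilobase of exon length, relative to all counted reads of the library) multiplied by a factor per library from median-ratio size factors of the counts. A gene was called when its limma adjusted p was under 0.05 and its fold change at least 1.5, on log2(scaled FPKM + 0.1), a scale that understates the change of low genes. A gene that missed either threshold is said not to have passed. Fold changes are LPS minus PBS unless said otherwise, with the standard error (SE) of the fit.

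The knocked-out gene was read first as a check of the titles. In scaled FPKM, Olfml3 was at 0.476, 0.415 and 0.511 with PBS and 0.327, 0.341 and 0.344 with LPS. All 6 knockout libraries lay at or below 0.0228, under every wild-type library, so its level went with the titles and against the tag in both mismatched groups. The change of Olfml3 with LPS in wild type was not called (log2 fold change -0.37), though it was called as deposited (-1.003). All 10 macrophage markers, among them Csf1r, Adgre1, Cd68, Lyz2, Itgam, Fcgr1, Mertk, Cd14 and Spi1, were detected, with a summed level of 11797 to 12041 scaled FPKM with PBS and 17075 to 17437 with LPS. Some listed markers of T cells (Cd3d, Cd3e, Cd3g, Cd8a), neutrophils (Ly6g), red cells (Hba-a1, Hbb-bs) and mast cells (Mcpt4, Fcer1a) had 0 counts in all 12 BMDM libraries. The 6 B cell markers were all tested and summed to 2.89 to 3.28 with PBS and 1.63 to 1.86 with LPS. Of these, Cd22 and Cd79b were called lower. Of 6 T cell markers the 2 detected summed to 6.03 to 6.80 with PBS, mostly Cd4, and to 22.0 to 24.1 with LPS, mostly Lck. Cd4 had means of 6.27 with PBS and 6.55 with LPS and did not pass, and Lck had 0.0602 and 16.1. The 4 detected of 6 NK cell markers summed to 0.0312 to 0.0705 with PBS to 5.62 to 5.86 with LPS, mostly Klrk1. The 6 detected of 8 neutrophil markers summed to 3.82 to 4.88 with PBS to 7.22 to 11.2 with LPS, and the 6 dendritic cell markers to 0.312 to 0.423 with PBS to 0.519 to 0.675 with LPS. The part of such cells in the results was not tested. The wild-type libraries held 21881039 to 22467927 counts, and 18501 to 20035 genes had a count. LPS replicate 1 deviated more from its group (median absolute log2 difference 0.120 for genes at 1 scaled FPKM or more) than replicates 2 and 3 (0.0874 and 0.0924). Without that library 7801 of the 8461 calls below (92.2%) held.

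LPS changed a large part of the transcriptome. Of 26973 genes tested, 8461 (31.4%) were called, 4056 (15.0%) higher and 4405 (16.3%) lower with LPS. Among the 11138 genes with a group mean of at least 1 scaled FPKM, 27.5% rose and 25.5% fell, the shares against which the counts of each gene list are to be read. Large changes were more often rises after scaling, but this balance depended on it. A fitted change of at least 10-fold was reached by 480 genes that rose and 118 that fell, and one of at least 100-fold by 53 and 0. As deposited, before scaling, these counts were 294 and 341 at 10-fold and 35 and 1 at 100-fold. In level, 315 called genes rose by at least 100 scaled FPKM and 6 fell by as much, against 165 and 45 as deposited. The 3 PBS and 3 LPS values did not overlap in 98.2% of calls. Calls were picked on these same values, so this share is no separate support for them. For 251 of the genes that rose all PBS libraries had 0 counts, and for 288 of those that fell all LPS libraries did.

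**Figure D1:**
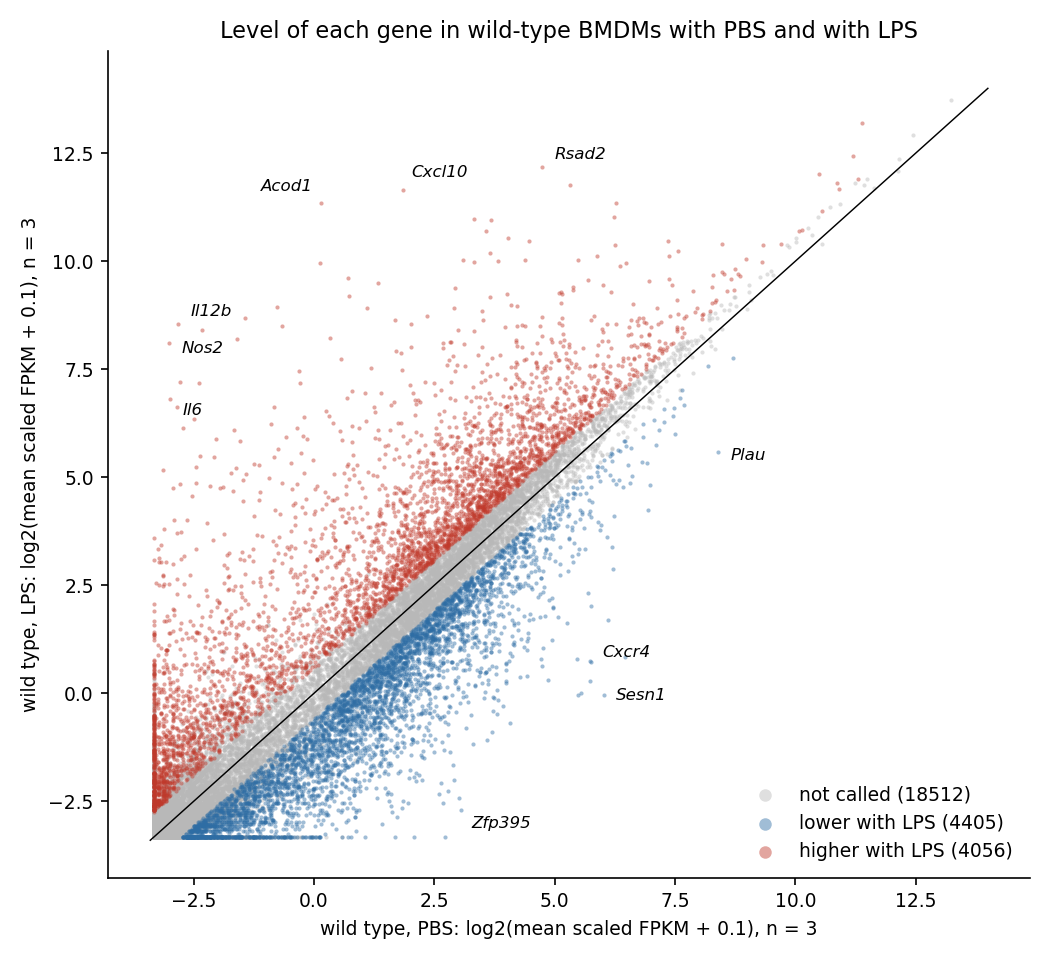
Mean level of each tested gene in wild-type BMDMs with PBS (x axis) and LPS (y axis), both log2(scaled FPKM + 0.1) over 3 libraries; the line marks equal levels. Red points are the 4056 genes that rose and blue points the 4405 that fell; the labelled rises lie farther from the line than the labelled falls.

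The direction of small changes and the balance of rises and falls depended on how libraries were scaled. The 1250 genes that rose at least 4-fold took 4.69% to 4.84% of all counts with PBS and 30.9% to 31.4% with LPS, so that the remaining genes together held a smaller share of each LPS library. The deposited FPKM, relative to all counts, gave 10894 calls, 2141 higher and 8753 lower, so that 19.7% were higher against 47.9% after scaling. For genes at 1 scaled FPKM or more the median fold change (log2) was 0.069 after scaling and -0.72 as deposited, a shift of 0.79. All 4405 falls and 2141 of the rises were called under both, and 1915 rises only after scaling. No RNA of known amount was added, so the amount of RNA per cell cannot be told apart from composition. Of the 30 gene lists described below, 13 had a median above 0 after scaling and below 0 as deposited. All of these were below 0 with TPM too, 8 with quantile normalization and 0 with TMM factors in edgeR.

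**Figure D2:**
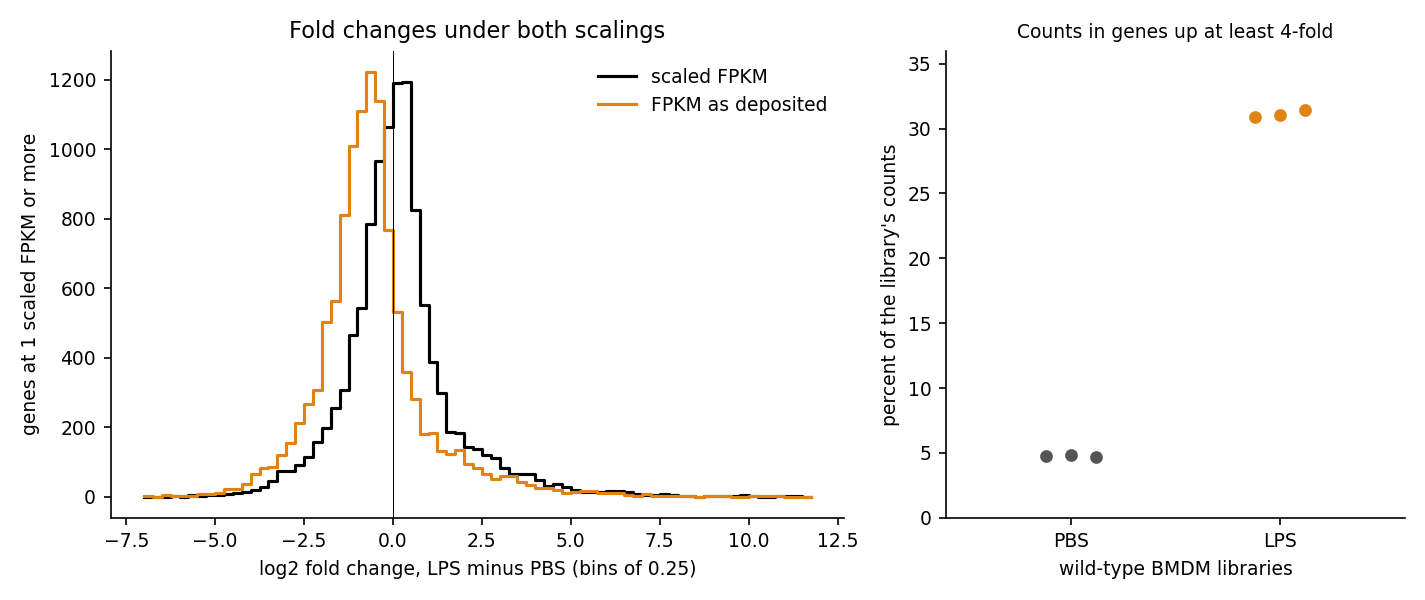
Left, number of genes (y axis) per bin of log2 fold change (x axis) for genes at 1 scaled FPKM or more, with scaled FPKM (black) and FPKM as deposited (orange); the medians are 0.069 and -0.72. Right, percent of each wild-type library's counts in the 1250 genes that rose at least 4-fold, between 4.69 and 4.84 with PBS and between 30.9 and 31.4 with LPS.

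Among genes with a mean of at least 5 scaled FPKM in 1 group, the steepest rises were in genes of the inflammatory response that were almost silent with PBS. Il12b, the p40 chain of interleukin-12 and interleukin-23, was at 0.0546, 0.0705 and 0 with PBS and 357, 378 and 380.2 with LPS (log2 fold change 11.39, SE 0.23, limma adjusted p = 1.13e-10). Acod1, which makes itaconate from cis-aconitate in mitochondria, was at 0.937, 1.09 and 0.999 with PBS and 2539.7, 2565 and 2666 with LPS (log2 fold change 11.19, SE 0.11, limma adjusted p = 3.12e-12). It moved from rank 10366 to rank 19 in level among the genes tested. Nos2, the inducible nitric oxide synthase, was at 0.0312, 0.0314 and 0.00786 with PBS and 267, 274 and 288 with LPS (log2 fold change 11.13, SE 0.15, limma adjusted p = 1.02e-11). In all 3 genes every LPS library exceeded every PBS library by over 2 orders of magnitude. Cxcl9, a ligand of CXCR3 on T cells, was at 0.148, 0.0627 and 0.0865 with PBS and 361, 327 and 337 with LPS (log2 fold change 10.77, SE 0.24, limma adjusted p = 2.06e-10). Cd69, a lectin known as an early activation marker of lymphocytes, was at 0.2498, 0.282 and 0.283 with PBS and 444, 397 and 391 with LPS (log2 fold change 10.11, SE 0.11, limma adjusted p = 3.16e-12). Edn1, the precursor of the vasoconstrictor endothelin-1, was at 0.0468, 0.0705 and 0.0157 with PBS and 149, 145 and 146 with LPS (log2 fold change 10.01, SE 0.12, limma adjusted p = 6.16e-12). The replicates of each group lay close together in these genes, apart from PBS values near the counting limit. Il1b was at 1.12, 1.03 and 0.810 with PBS and 1013, 993 and 961 with LPS (log2 fold change 9.84, SE 0.11, limma adjusted p = 3.16e-12). Il6 was at 0.0312, 0.0470 and 0 with PBS and 122, 109 and 106 with LPS (log2 fold change 9.82, SE 0.17, limma adjusted p = 4.18e-11). Ptgs2, the inducible cyclooxygenase of prostaglandin synthesis, was at 0.211, 0.282 and 0.197 with PBS and 284, 296 and 296 with LPS (log2 fold change 9.80, SE 0.10, limma adjusted p = 3.16e-12). Cxcl10, another CXCR3 ligand, completed the 10 steepest rises and ranked 17 in level with LPS, against 7009 with PBS.

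By the same rule, the steepest falls reached lower folds. The rule itself requires that a fall start from at least 5 scaled FPKM with PBS, and that a rise reach this level with LPS. The starting levels of rises and falls are therefore not compared. Sesn1, a stress-induced inhibitor of mTORC1 signalling, was at 64.8, 63.7 and 65.5 with PBS and 0.791, 1.02 and 0.785 with LPS (log2 fold change -6.08, SE 0.11, limma adjusted p = 4.68e-11). Cebpa, a transcription factor of the myeloid lineage, was at 42.5, 45.6 and 45.1 with PBS and 0.736, 0.983 and 0.881 with LPS (log2 fold change -5.53, SE 0.12, limma adjusted p = 1.54e-10). Cxcr4, the receptor of the chemokine CXCL12, was at 53.3, 52.9 and 53.5 with PBS and 1.77, 1.92 and 1.02 with LPS (log2 fold change -5.04, SE 0.19, limma adjusted p = 7.79e-09). These 3 genes lost nearly all of their signal in each LPS library. Slc40a1, which encodes ferroportin, the iron exporter, was at 56.0, 49.9 and 56.4 with PBS and 1.61, 1.54 and 1.54 with LPS (log2 fold change -5.02, SE 0.069, limma adjusted p = 1.09e-11). Zfp36l1, an RNA-binding protein that destabilises messages with AU-rich elements, was at 54.2, 52.7 and 53.6 with PBS and 1.17, 0.805 and 1.36 with LPS (log2 fold change -5.49, SE 0.17, limma adjusted p = 2.29e-09). Cd300lb, an activating receptor of myeloid cells, was at 86.5, 87.8 and 89.8 with PBS and 1.90, 1.36 and 1.82 with LPS (log2 fold change -5.63, SE 0.10, limma adjusted p = 4.67e-11). The other steep falls were Zfp395, Arhgap19, Cnr2 (the cannabinoid receptor CB2) and Cdca7, with log2 fold changes of -5.74, -5.54, -5.50 and -5.05.

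By absolute level the largest gains were in Rsad2, Ifit2, Cxcl10 and B2m beside Rn18s-rs5, a ribosomal RNA locus that poly(A) selection should remove. Rn18s-rs5 was at 2015, 2823 and 3168 with PBS and 7809, 12617 and 7574 with LPS and took 0.477% to 0.745% of counts with PBS and 1.02% to 1.71% with LPS, with the highest value in LPS replicate 2. Its copies share reads, so this value is uncertain. B2m, the light chain of MHC class I, was at 2286, 2475 and 2333 with PBS and 5969.8, 5279 and 5259 with LPS (log2 fold change 1.22, SE 0.059, limma adjusted p = 5.86e-08), but as deposited its change was 0.41 and not called. The largest losses in scaled FPKM were in Plau, Sirpa, Hmox1, Tlr13 and Adam8. This order held only after scaling, since as deposited the largest loss among called genes was that of Ftl1, from a mean of 5739 to 3166 FPKM, followed by Psap, Ctsd and Selenop, all above that of Plau (427 to 35.0). Plau, the urokinase plasminogen activator, was at 321, 343 and 342 with PBS and 49.7, 46.4 and 47.7 with LPS (log2 fold change -2.80, SE 0.054, limma adjusted p = 7.82e-11). Sirpa, the inhibitory receptor for CD47, was at 421, 411 and 417 with PBS and 207, 215 and 224 with LPS (log2 fold change -0.95, SE 0.043, limma adjusted p = 3.84e-08). Hmox1, haem oxygenase, was at 180.4, 172 and 191 with PBS and 63.1, 62.3 and 65.2 with LPS (log2 fold change -1.51, SE 0.067, limma adjusted p = 3.16e-08). The 100 genes of highest level with PBS and with LPS shared 56 members, and 20 of the 100 highest with LPS had ranked beyond 1000 with PBS.

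**Figure D3:**
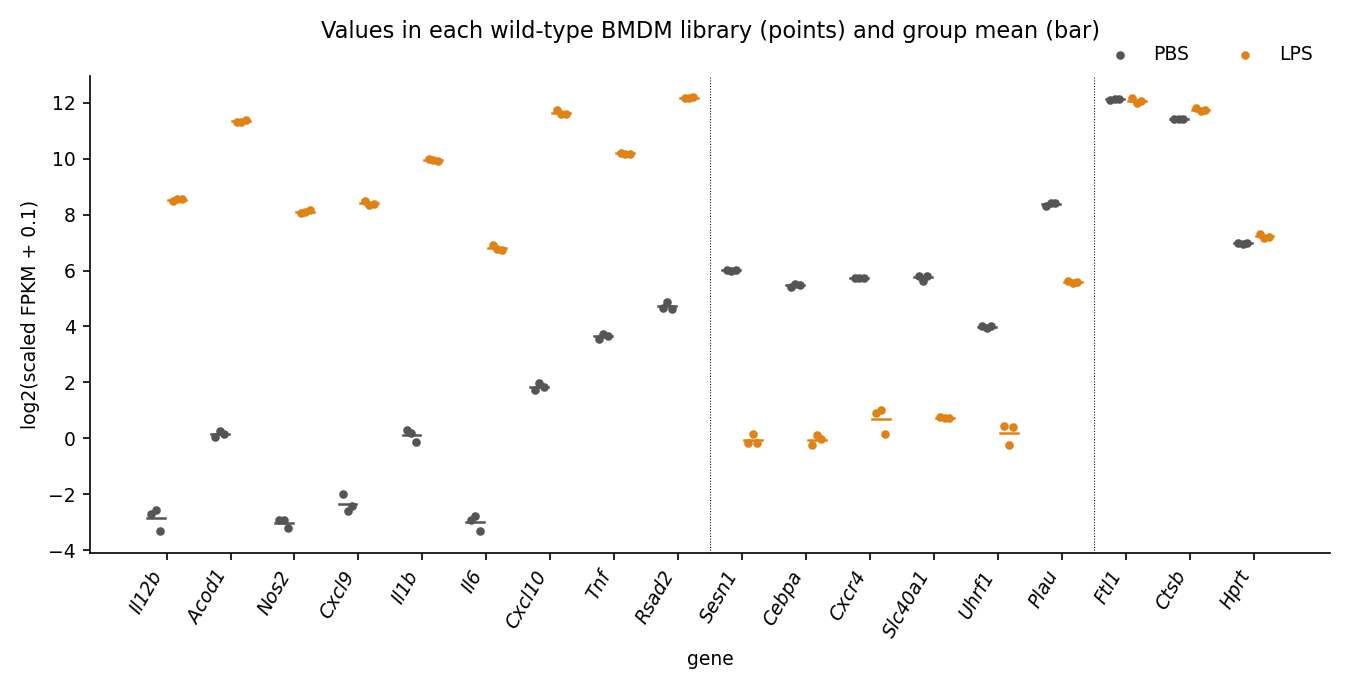
Level of 18 genes in each wild-type library, y axis log2(scaled FPKM + 0.1), grey PBS and orange LPS, points libraries and bars group means of 3. The first 9 genes lie far higher with LPS, the next 6 lower, and Ftl1, Ctsb and Hprt at nearly the same level in both groups.

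Of the inflammatory cytokines, 17 of 19 tested rose, 0 fell and 2 did not pass, with a median log2 fold change of 5.24. Beside Il12b, Il1b and Il6, Tnf was at 11.6, 13.3 and 12.47 with PBS and 1177, 1166 and 1166 with LPS (log2 fold change 6.54, SE 0.086, limma adjusted p = 9.16e-12), the highest-ranked cytokine of the list with LPS. Il27 and Il1a rose by 9.73 and 8.92 on the log2 scale. Ifnb1, interferon-beta, was at 0, 0.0470 and 0.0944 with PBS and 8.90, 9.76 and 6.82 with LPS. Its 3 PBS libraries held 3 counts in all and its LPS libraries 311, a ratio of levels of 180.2 (exact 95% interval of counting error 61.1 to 878). Partner chains of heterodimers differed in level with LPS. Il12a, the p35 partner of Il12b in interleukin-12, reached a mean of 5.61 scaled FPKM and Il23a, its partner in interleukin-23, 0.524, against 372 for Il12b. Ebi3, which pairs with Il27, rose from 10.8 to 116. Lif and Osm did not pass the test, with log2 fold changes of 0.42 and 0.19, and that of Osm was -0.57 as deposited. Of the antagonists and anti-inflammatory cytokines, 8 of 9 tested rose, 0 fell and 1 did not pass, with a median log2 fold change of 2.36. Il1rn, the interleukin-1 receptor antagonist, was at 7.68, 8.31 and 7.62 with PBS and 349, 326 and 337 with LPS (log2 fold change 5.40, SE 0.063, limma adjusted p = 4.65e-12). Il10 was at 0.991, 1.04 and 0.794 with PBS and 29.6, 26.1 and 27.9 with LPS (log2 fold change 4.75, SE 0.13, limma adjusted p = 7.76e-10). Both lay apart between groups. Tgfb1 was the member that did not pass (-0.11), although it fell by 0.91 as deposited and was called there.

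Of the chemokines, 20 of 21 tested rose, 0 fell and 1 did not pass, with a median log2 fold change of 5.06. The CXCR3 ligands had the steepest rises, with Cxcl11 at 0.0156, 0.00784 and 0.0157 with PBS and 39.9, 32.7 and 35.8 with LPS (log2 fold change 8.32, SE 0.081, limma adjusted p = 3.12e-12) beside Cxcl9 and Cxcl10. Ccl5, an attractant of T cells and monocytes, was at 11.9, 13.3 and 12.9 with PBS and 2154, 1901 and 1903 with LPS (log2 fold change 7.28, SE 0.16, limma adjusted p = 1.63e-10). Ccl2, the CCR2 ligand that recruits monocytes, was at 86.0, 94.8 and 86.9 with PBS and 1059, 968 and 951 with LPS (log2 fold change 3.47, SE 0.062, limma adjusted p = 5.03e-11). Ccl3 and Ccl4 reached means of 2595 and 2083 scaled FPKM with LPS. The neutrophil attractants rose to lower levels, Cxcl1 at a mean of 6.56, Cxcl2 at 39.9 and Cxcl3 at 5.72. Ccl6 did not pass (-0.30), but was called lower as deposited (-1.11). Receptors went both ways. Of the chemokine and chemoattractant receptors, 4 of 11 tested rose, 5 fell and 2 did not pass, with a median log2 fold change of -0.35. Ccr2 and Cx3cr1 fell with Cxcr4, by 2.78 and 2.93 on the log2 scale. Ccrl2, a receptor that binds chemerin without signalling, was at 3.55, 3.38 and 3.22 with PBS and 240.2, 232 and 237 with LPS (log2 fold change 6.08, SE 0.060, limma adjusted p = 3.12e-12). The formyl peptide receptors Fpr1 and Fpr2 rose by 4.18 and 6.39, and C3ar1, at a mean of 303 with PBS and 262 with LPS, did not pass but was called lower as deposited (-1.02).

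Of the interferon-stimulated genes, 39 of 40 tested rose, 0 fell and 1 did not pass, with a median log2 fold change of 4.48. As deposited 39 were also higher. None ranked among the 100 highest levels with PBS and 11 did with LPS. Rsad2, which encodes the antiviral enzyme viperin, was at 25.4, 29.6 and 24.6 with PBS and 4572, 4616 and 4686 with LPS (log2 fold change 7.45, SE 0.082, limma adjusted p = 3.36e-12). Ifit2, which binds viral RNA, was at 38.2, 44.4 and 36.6 with PBS and 3442, 3419 and 3494 with LPS (log2 fold change 6.44, SE 0.067, limma adjusted p = 3.16e-12). Cmpk2, a nucleotide kinase of mitochondria whose gene neighbours Rsad2, was at 9.66, 11.1 and 9.18 with PBS and 2106, 1962 and 2001 with LPS (log2 fold change 7.65, SE 0.088, limma adjusted p = 4.16e-12). With LPS these 3 genes held nearly equal values in all replicates. Gbp5, a guanylate-binding protein, was at 2.30, 2.38 and 2.51 with PBS and 706, 721 and 739 with LPS (log2 fold change 8.18, SE 0.056, limma adjusted p = 1.75e-12). Iigp1, an immunity-related GTPase, was at 1.07, 1.31 and 1.09 with PBS and 309, 289.7 and 303 with LPS (log2 fold change 7.91, SE 0.14, limma adjusted p = 4.99e-11). Fold changes of the interferon machinery itself were smaller, and Stat2 rose by 2.60, Irf9 by 1.39 and Irf7 by 3.83. With PBS the second replicate held the highest value in Rsad2, Ifit2 and Cmpk2. Ifi27l2a was the member that did not pass (0.36, and -0.45 as deposited). Members of the Ifit, Oas, Gbp and Irg families are similar in sequence, and how reads shared by copies were counted is not stated.

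Promoter windows of RefSeq (GRCm38.p6, 250 bases before to 50 after a gene's start, the first window listed for each gene) were searched for 2 motifs, an interferon motif GAAANNGAA and an NF-kappaB motif GGGNNTTTC, on both strands. Of 27025 windows 8.57% held the first and 4.46% the second. Among genes at 1 scaled FPKM or more the interferon motif was in 12.007% of 2157 windows of genes that rose, 6.61% of 3811 that were not called and 5.62% of 2172 that fell, and in 22.6% of 323 that rose at least 10-fold. The NF-kappaB motif was in 6.26%, 3.83%, 3.96% and 8.67% of the same windows. In the list of interferon-stimulated genes 19 of 30 windows held the interferon motif (63.3%), and in the chemokines 5 of 13 held the NF-kappaB motif (38.5%). These counts describe letters in a short window and say nothing of binding. Shown are the 250 bases before the start of 5 rising genes whose stretch holds a motif. They read along the strand of the gene, with motif letters in capitals whichever strand carries the motif. Not shown are Edn1, which rose and held the interferon motif, and Cd300lb and Cxcr4, which fell and held the NF-kappaB motif.
Il6: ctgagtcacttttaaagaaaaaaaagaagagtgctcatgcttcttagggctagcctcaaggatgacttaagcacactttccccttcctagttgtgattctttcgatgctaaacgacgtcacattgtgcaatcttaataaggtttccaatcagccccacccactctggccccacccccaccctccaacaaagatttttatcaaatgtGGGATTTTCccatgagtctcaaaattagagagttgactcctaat
Cxcl9: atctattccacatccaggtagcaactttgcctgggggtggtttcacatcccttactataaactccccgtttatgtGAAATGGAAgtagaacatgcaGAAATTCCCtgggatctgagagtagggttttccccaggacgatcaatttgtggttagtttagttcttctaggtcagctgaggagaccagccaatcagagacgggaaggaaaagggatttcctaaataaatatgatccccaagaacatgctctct
Cxcl10: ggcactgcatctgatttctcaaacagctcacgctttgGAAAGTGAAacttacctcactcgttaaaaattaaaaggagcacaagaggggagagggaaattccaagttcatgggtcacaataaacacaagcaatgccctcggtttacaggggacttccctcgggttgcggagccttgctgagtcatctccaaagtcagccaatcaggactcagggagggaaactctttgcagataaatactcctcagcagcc
Rsad2: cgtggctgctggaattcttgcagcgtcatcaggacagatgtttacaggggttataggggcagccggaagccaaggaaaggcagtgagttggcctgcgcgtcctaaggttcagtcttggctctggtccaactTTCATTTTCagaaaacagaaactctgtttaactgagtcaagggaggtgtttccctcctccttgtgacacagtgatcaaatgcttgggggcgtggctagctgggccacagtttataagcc
B2m: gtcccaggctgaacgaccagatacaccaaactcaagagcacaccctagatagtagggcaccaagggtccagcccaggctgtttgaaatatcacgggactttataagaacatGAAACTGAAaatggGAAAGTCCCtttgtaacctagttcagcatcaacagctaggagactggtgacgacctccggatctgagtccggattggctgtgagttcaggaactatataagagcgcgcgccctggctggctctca
Within these stretches Il6 held the NF-kappaB motif alone, Cxcl10 and Rsad2 the interferon motif alone, and Cxcl9 and B2m both. Only the letters given above were searched for, so a stretch without a match may hold another form of either motif. On GRCm38.p6, the Il6 stretch is chr5:30012864-30013113 (plus strand), the Cxcl9 stretch is chr5:92328080-92328329 (minus strand), the Cxcl10 stretch is chr5:92348890-92349139 (minus strand), the Rsad2 stretch is chr12:26456453-26456702 (minus strand) and the B2m stretch is chr2:122147437-122147686 (plus strand).

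Of the NF-kappaB subunits and inhibitors, 12 of 14 tested rose, 0 fell and 2 did not pass, with a median log2 fold change of 3.10. Nfkbiz, a nuclear IkappaB protein needed for secondary targets such as Il6, was at 1.65, 1.75 and 1.45 with PBS and 128, 124 and 131 with LPS (log2 fold change 6.22, SE 0.070, limma adjusted p = 3.70e-12). Nfkbia, the IkappaB-alpha inhibitor, was at 16.7, 17.2 and 16.9 with PBS and 514, 488 and 513 with LPS (log2 fold change 4.89, SE 0.053, limma adjusted p = 3.16e-12). Fold changes of the subunits were smaller, and Nfkb1 rose by 2.94, Nfkb2 by 3.94, Rel by 3.26 and Rela by 1.75. Ikbkg, the scaffold of the IkappaB kinase, did not pass (0.36, and -0.43 as deposited). Of the negative feedback regulators, 18 of 20 tested rose, 2 fell and 0 did not pass, with a median log2 fold change of 2.88. Socs3, which blocks signalling by the interleukin-6 receptor, was at 0.476, 0.572 and 0.535 with PBS and 369, 349 and 361 with LPS (log2 fold change 9.17, SE 0.073, limma adjusted p = 1.75e-12). Socs1, an inhibitor of JAK kinases, was at 0.109, 0.196 and 0.102 with PBS and 51.6, 40.6 and 40.6 with LPS (log2 fold change 7.57, SE 0.18, limma adjusted p = 3.46e-10). Tnfaip3, the ubiquitin-editing enzyme A20, was at 6.22, 6.42 and 6.22 with PBS and 262, 275 and 283 with LPS (log2 fold change 5.42, SE 0.056, limma adjusted p = 3.16e-12). The members that fell were Dusp4 and Trib1, by 0.98 and 2.24.

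Components of LPS sensing did not move as a group. Of the Toll-like receptors and adaptors, 11 of 20 tested rose, 4 fell and 5 did not pass, with a median log2 fold change of 0.67 (-0.12 as deposited). Tlr4 itself was at 25.9, 26.2 and 26.5 with PBS and 11.998, 14.53 and 14.1 with LPS (log2 fold change -0.95, SE 0.068, limma adjusted p = 1.15e-06), while its partners Cd14 and Ly96, which encodes MD-2, rose by 2.56 and 1.58. Tlr2, the receptor for bacterial lipopeptides, was at 17.9, 17.9 and 18.5 with PBS and 203, 202 and 203 with LPS (log2 fold change 3.48, SE 0.040, limma adjusted p = 4.35e-12). Tlr13, a receptor for bacterial ribosomal RNA, was at 124, 123 and 122 with PBS and 17.5, 19.0 and 20.4 with LPS (log2 fold change -2.70, SE 0.058, limma adjusted p = 1.54e-10). The adaptors diverged as well. Myd88 rose by 2.72 and Ticam1, which encodes TRIF, by 0.62, whereas Tirap and Ticam2 did not pass (-0.045 and -0.12) but were called lower as deposited (-0.83 and -0.91). The change of Ticam1 was -0.18 and not called as deposited, and it missed the fold threshold without PBS replicate 1. Irak2 rose by 2.48 and Irak4 fell by 0.83.

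Transcription factors split into rising and falling sets. Of the AP-1, EGR and immediate-early genes, 10 of 19 tested rose, 5 fell and 4 did not pass, with a median log2 fold change of 0.73 (-0.074 as deposited). Batf2 and Batf, basic leucine zipper partners, were the steepest rises, Batf2 at 0.710, 0.737 and 0.739 with PBS and 50.2, 45.6 and 46.5 with LPS (log2 fold change 5.84, SE 0.093, limma adjusted p = 2.61e-11). Atf3, a repressor induced by stress, was at the highest level, 105, 105 and 106 with PBS and 372, 361 and 364 with LPS (log2 fold change 1.79, SE 0.037, limma adjusted p = 1.21e-10). Fos, Egr2, Egr3 and Myc fell by 1.33, 1.46, 1.92 and 2.49 at this time point. Of the macrophage lineage transcription factors, 13 of 24 tested rose, 10 fell and 1 did not pass, with a median log2 fold change of 0.73 (-0.054 as deposited). Irf1 was at 10.05, 10.2 and 9.63 with PBS and 343, 325 and 332 with LPS (log2 fold change 5.05, SE 0.063, limma adjusted p = 7.00e-12). Spi1, which encodes PU.1, rose by 1.61 and Cebpb by 2.79, opposite to Cebpa. The nuclear receptors Pparg and Rxra fell by 2.96 and 3.17 and Mef2c by 2.38.

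Surface receptors for uptake diverged as well. Of the phagocytic and scavenger receptors, 12 of 25 tested rose, 4 fell and 9 did not pass, with a median log2 fold change of 0.13 (-0.60 as deposited). Clec4e, which encodes the mycobacterial glycolipid receptor Mincle, was at 3.41, 2.84 and 3.19 with PBS and 246, 244 and 243 with LPS (log2 fold change 6.24, SE 0.065, limma adjusted p = 3.16e-12). The activating Fc receptor Fcgr4 rose by 3.03 and the inhibitory Fcgr2b by 2.15. Cd163, the haemoglobin scavenger receptor, fell from a mean of 2.80 to 0.210 and Cd300a by 2.24. Cd36 was at 323, 317 and 331 with PBS and 251, 247 and 255 with LPS and did not pass, though it was called lower as deposited (-1.17). Of the complement components, 7 of 12 tested rose, 0 fell and 5 did not pass, with a median log2 fold change of 0.63. C3 was at 6.87, 6.91 and 7.36 with PBS and 252, 292 and 302 with LPS (log2 fold change 5.30, SE 0.082, limma adjusted p = 2.23e-11). C1qb, part of C1q, rose by 0.61, but its change was -0.19 as deposited and missed the fold threshold without LPS replicate 1 (0.57). Of the lysosome genes, 6 of 25 tested rose, 5 fell and 14 did not pass, with a median log2 fold change of 0.31 (-0.49 as deposited), against 27.5% that rose and 25.5% that fell among all genes at 1 scaled FPKM or more. Ctsb was at 2733, 2732 and 2751 with PBS and 3607, 3388 and 3403 with LPS and did not pass (0.34, and -0.47 as deposited). Ctsc, which activates granule serine proteases, rose by 2.78, and Tfeb, the transcription factor of lysosome genes, was at 4.83, 5.48 and 5.47 with PBS and 0.341, 0.314 and 0.344 with LPS (log2 fold change -3.63, SE 0.15, limma adjusted p = 1.68e-08).

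**Figure D4:**
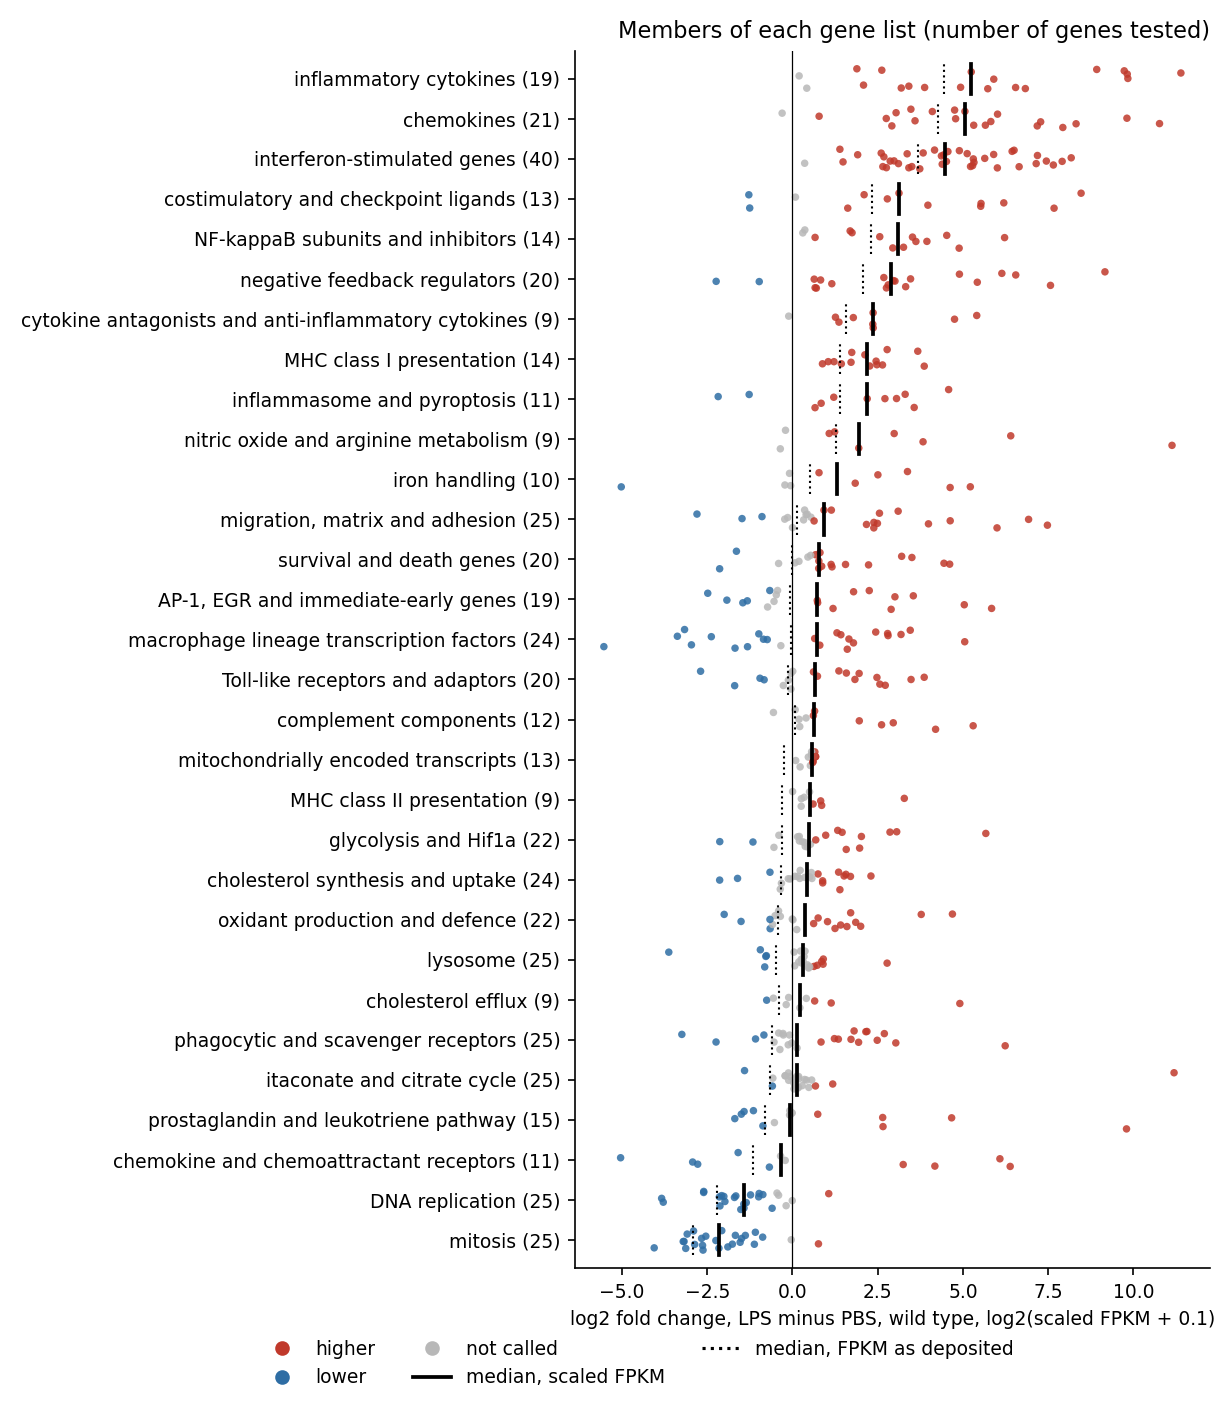
Log2 fold change (x axis, LPS minus PBS) of every tested member of 30 gene lists (y axis, number of genes tested in brackets), red called higher, blue called lower, grey not called. Solid bars are list medians with scaled FPKM and dotted bars with FPKM as deposited; cytokines, chemokines and interferon-stimulated genes lie highest and mitosis lowest under both.

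Metabolic genes moved at selected steps. Of the nitric oxide and arginine genes, 7 of 9 tested rose, 0 fell and 2 did not pass, with a median log2 fold change of 1.94. Slc7a2, the arginine transporter, was at 0.484, 0.462 and 0.551 with PBS and 46.6, 51.8 and 53.3 with LPS (log2 fold change 6.402, SE 0.068, limma adjusted p = 3.16e-12), and Gch1, which makes the cofactor of Nos2, rose by 3.83. Arg1, the other main user of arginine, stayed under 0.1 scaled FPKM in each group mean. Of the prostaglandin and leukotriene genes, 5 of 15 tested rose, 5 fell and 5 did not pass, with a median log2 fold change of -0.078 (-0.82 as deposited). These shares are near those of all genes at 1 scaled FPKM or more (27.5% and 25.5%). Pla2g4a, which frees arachidonic acid, and Ptges, a synthase of prostaglandin E2, rose by 2.66 and 4.67. Ptgs1, which catalyses the same step as Ptgs2, and Hpgds and Hpgd fell by 1.501, 1.42 and 1.69.

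Of the glycolysis genes with Hif1a, 10 of 22 tested rose, 2 fell and 10 did not pass, with a median log2 fold change of 0.49 (-0.31 as deposited). Slc2a6, a hexose transporter, was at 3.51, 3.66 and 3.14 with PBS and 182, 176 and 182 with LPS (log2 fold change 5.67, SE 0.069, limma adjusted p = 6.16e-12). Hk2, which acts at the first step, and Pfkfb3 rose by 2.86 and 3.06, and Hif1a rose by 1.97. Among the enzymes that did not pass were Pkm at 0.20 and Aldoa at 0.15, and as deposited both were called lower (-0.60 and -0.65). Pgk1, called at 0.68, was at -0.12 as deposited. Of the itaconate and citrate cycle genes, 3 of 25 tested rose, 2 fell and 20 did not pass, with a median log2 fold change of 0.13, fewer in either direction than the 27.5% and 25.5% of all genes at 1 scaled FPKM or more. Apart from Acod1, whose mean level rose 2569-fold, Idh1, the cytosolic isocitrate dehydrogenase, was at 83.1, 78.7 and 81.7 with PBS and 31.6, 28.5 and 31.7 with LPS (log2 fold change -1.41, SE 0.054, limma adjusted p = 1.03e-08). Dld, a shared subunit of the 2-oxoacid dehydrogenases, rose by 1.18 but was at 0.38 and not called as deposited. The succinate dehydrogenase subunits Sdha, Sdhb, Sdhc and Sdhd had log2 fold changes of 0.18, -0.070, 0.35 and 0.18, and -0.62, -0.87, -0.45 and -0.62 as deposited. As deposited 17 of the 25 genes were called lower and the median was -0.67. Of the mitochondrially encoded transcripts, 5 of 13 tested rose, 0 fell and 8 did not pass, with a median log2 fold change of 0.56, and as deposited 0 were called, with a median of -0.24. Aifm1, the apoptosis-inducing factor of mitochondria, was at 7.08, 6.78 and 7.21 with PBS and 3.74, 3.77 and 3.95 with LPS (log2 fold change -0.86, SE 0.060, limma adjusted p = 1.00e-06). The study itself measured or studied 9 genes (Olfml3, Acod1, Aifm1, Ccl2, Il1b, Il6, Tnf, Nos2 and Hprt). Of these, 6 rose, Aifm1 fell and Olfml3 and Hprt did not pass. The study chose these genes for its own questions, so their count is not independent evidence.

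Of the genes of oxidant production and defence, 11 of 22 tested rose, 4 fell and 7 did not pass, with a median log2 fold change of 0.37 (-0.43 as deposited). Cybb, the catalytic subunit of the phagocyte NADPH oxidase, was at 173, 179 and 172 with PBS and 643, 716 and 739.6 with LPS (log2 fold change 2.0002, SE 0.056, limma adjusted p = 1.04e-09). Sod2, the mitochondrial superoxide dismutase, was at 4.22, 3.997 and 4.32 with PBS and 111, 109 and 111 with LPS (log2 fold change 4.69, SE 0.044, limma adjusted p = 3.11e-12). Targets of NRF2 split, since Slc7a11 and Txnrd1 rose by 3.78 and 1.596 and Hmox1, Gclc and Srxn1 fell by 1.51, 2.004 and 0.66. Of the iron genes, 6 of 10 tested rose, 1 fell and 3 did not pass, with a median log2 fold change of 1.31. The importers Slc11a2 and Slc39a14 rose by 2.51 and 1.84, opposite to the exporter Slc40a1. Lcn2, which binds bacterial siderophores, rose from a mean of 0.0549 to 5.65. Ftl1, ferritin light chain, was at 4417, 4542 and 4533 with PBS and 4583, 4124 and 4290.3 with LPS and did not pass, though it was called lower as deposited (-0.86). Of the cholesterol synthesis and uptake genes, 9 of 24 tested rose, 3 fell and 12 did not pass, with a median log2 fold change of 0.43 (-0.34 as deposited). Dhcr7, which makes the last step of synthesis, fell by 1.61 on the log2 scale. Of the cholesterol efflux genes, 3 of 9 tested rose, 1 fell and 5 did not pass, with a median log2 fold change of 0.22 (-0.40 as deposited). Ch25h, which makes 25-hydroxycholesterol, rose by 4.91, and Abca1 fell by 0.76. Abca1 was at 83.8, 80.6 and 82.7 with PBS and 41.1, 52.5 and 53.3 with LPS, lowest in LPS replicate 1.

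The cell cycle was the clearest falling group. Of the mitosis genes, 1 of 25 tested rose, 23 fell and 1 did not pass, with a median log2 fold change of -2.16. Of the DNA replication genes, 1 of 25 tested rose, 20 fell and 4 did not pass, with a median log2 fold change of -1.43. Bub1b, a kinase of the spindle checkpoint, was at 5.89, 5.64 and 6.34 with PBS and 0.464, 0.505 and 0.771 with LPS (log2 fold change -3.18, SE 0.15, limma adjusted p = 5.65e-08). Aurkb, a kinase of chromosome segregation, fell by 3.09 and Kif11, a spindle motor, by 2.90. Uhrf1, which carries DNA methylation through replication, was at 15.9, 15.4 and 15.9 with PBS and 1.27, 0.737 and 1.21 with LPS (log2 fold change -3.79, SE 0.16, limma adjusted p = 1.87e-08). The replicative helicase subunits Mcm2, Mcm3, Mcm4, Mcm5 and Mcm7 fell by 2.60, 2.13, 1.70, 1.43 and 2.08, and Mcm6, at -0.41, did not pass (-1.21 and called as deposited). Mki67 was at 21.02, 18.2 and 21.6 with PBS and 8.93, 12.3 and 12.02 with LPS (log2 fold change -0.87, SE 0.12, limma adjusted p = 1.37e-04), and its LPS values spread more than most. Pcna, at a mean of 188 with PBS and 166 with LPS, did not pass, but was called lower as deposited (-0.99). Against the group, Rfc3 and Tpx2 rose by 1.06 and 0.76, but at 0.27 and -0.035 neither was called as deposited. In bulk RNA fewer cycling cells and less RNA of these genes per cell cannot be told apart.

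Antigen presentation moved by class. Of the MHC class I presentation genes, 14 of 14 tested rose, 0 fell and 0 did not pass, with a median log2 fold change of 2.19, and as deposited 11 were called higher. Nlrc5, the transactivator of class I genes, was at 3.79, 4.22 and 3.65 with PBS and 51.7, 60.1 and 62.3 with LPS (log2 fold change 3.86, SE 0.085, limma adjusted p = 1.77e-10). The peptide transporter Tap1 rose by 3.67 and the proteasome activator Psme2 by 2.78. Of the MHC class II presentation genes, 4 of 9 tested rose, 0 fell and 5 did not pass, with a median log2 fold change of 0.50 (-0.30 as deposited). Ciita, their transactivator, rose from a mean of 0.392 to 4.66. Cd74, the invariant chain, and H2-Ab1 were called at 0.83 and 0.86, but at 0.023 and 0.058 as deposited neither was. Of the costimulatory and checkpoint ligands, 10 of 13 tested rose, 2 fell and 1 did not pass, with a median log2 fold change of 3.12. Cd40, the receptor for T cell help, was at 1.69, 1.38 and 1.63 with PBS and 607, 571 and 581 with LPS (log2 fold change 8.47, SE 0.088, limma adjusted p = 3.16e-12). Cd274, which encodes the checkpoint ligand PD-L1, was at 13.8, 15.1 and 13.1 with PBS and 988, 1048 and 1069 with LPS (log2 fold change 6.20, SE 0.064, limma adjusted p = 3.16e-12). Cd86 rose by 3.12 and Cd80 by 1.62, while the inhibitory Vsir and Havcr2 fell by 1.28 and 1.25.

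Of the inflammasome and pyroptosis genes, 9 of 11 tested rose, 2 fell and 0 did not pass, with a median log2 fold change of 2.19. Casp4, the caspase that binds cytosolic LPS, was at 4.04, 4.54 and 4.21 with PBS and 108, 102 and 103 with LPS (log2 fold change 4.58, SE 0.051, limma adjusted p = 3.49e-12). The sensor Nlrp3 rose by 3.31, and Nlrp1b and Nlrc4 fell by 2.18 and 1.27. Of the survival and death genes, 13 of 20 tested rose, 2 fell and 5 did not pass, with a median log2 fold change of 0.79 (-0.011 as deposited). Cflar, the caspase-8 inhibitor c-FLIP, was at 8.39, 8.81 and 8.74 with PBS and 174, 196 and 202 with LPS (log2 fold change 4.44, SE 0.060, limma adjusted p = 1.03e-11). The death receptor Fas and the necroptosis effector Mlkl rose by 4.61 and 3.50, and Bcl2 fell by 2.14. Of the migration, matrix and adhesion genes, 14 of 25 tested rose, 3 fell and 8 did not pass, with a median log2 fold change of 0.92. Mmp13, a collagenase, was at 8.19, 8.84 and 8.31 with PBS and 1114, 983 and 1023 with LPS (log2 fold change 6.93, SE 0.071, limma adjusted p = 3.16e-12). Marcksl1, an actin regulator, reached a mean of 1423 from 22.1. The integrin chains Itga4, Itga5 and Itgal rose by 2.49, 2.39 and 2.55. Hprt, a reference gene in the study, was at 127, 125 and 128 with PBS and 159, 144 and 146 with LPS and did not pass (0.24, and -0.56 as deposited).

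The same contrast in Olfml3 knockout BMDMs, with its own PBS and LPS libraries, showed where the wild-type response differed. The response differed between genotypes in 714 genes (2.65% of those tested), 334 more positive and 380 more negative in knockout. In knockout 8027 of the 26973 genes tested were called for LPS. Most wild-type calls, 6755 of 8461, were also called in the same direction in knockout and 8 in the opposite one. Among the interferon-stimulated genes 32 of 40 differed, of which 31 rose more in knockout. Their median log2 fold change was 4.48 in wild type and 6.08 in knockout. The levels, however, were higher in wild type. With PBS the mean of all 40 genes was higher in wild type than in knockout (median difference -1.85 on the log2 scale, knockout minus wild type), and with LPS that of 38 was (-0.50). Irf7, the interferon amplifier, had means of 18.4 and 263 with PBS and LPS in wild type and 1.56 and 160.5 in knockout (difference of log2 fold changes 2.77, SE 0.13, limma adjusted p = 7.59e-06). Oasl2 had 20.5 and 210.4 in wild type and 1.67 and 134 in knockout (difference of log2 fold changes 2.89, SE 0.16, limma adjusted p = 2.31e-05). In both genes the larger fold in knockout went with a lower PBS level and not with a higher LPS level. Ccl5 had means of 12.7 and 1986 in wild type and 0.663 and 1842 in knockout (difference of log2 fold changes 3.99, SE 0.22, limma adjusted p = 2.31e-05). Cxcl9 rose less in knockout, to 24.3 against 342 in wild type (difference of log2 fold changes -3.39, SE 0.34, limma adjusted p = 5.42e-04), as did Cxcl11 (-2.07) and Irf8 (-1.94). In the NF-kappaB list 1 of 14 and in the inflammatory cytokines 4 of 19 differed. Acod1, Nos2 and Tnf did not pass, with differences of -0.43, -0.27 and 0.068.

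**Figure D5:**
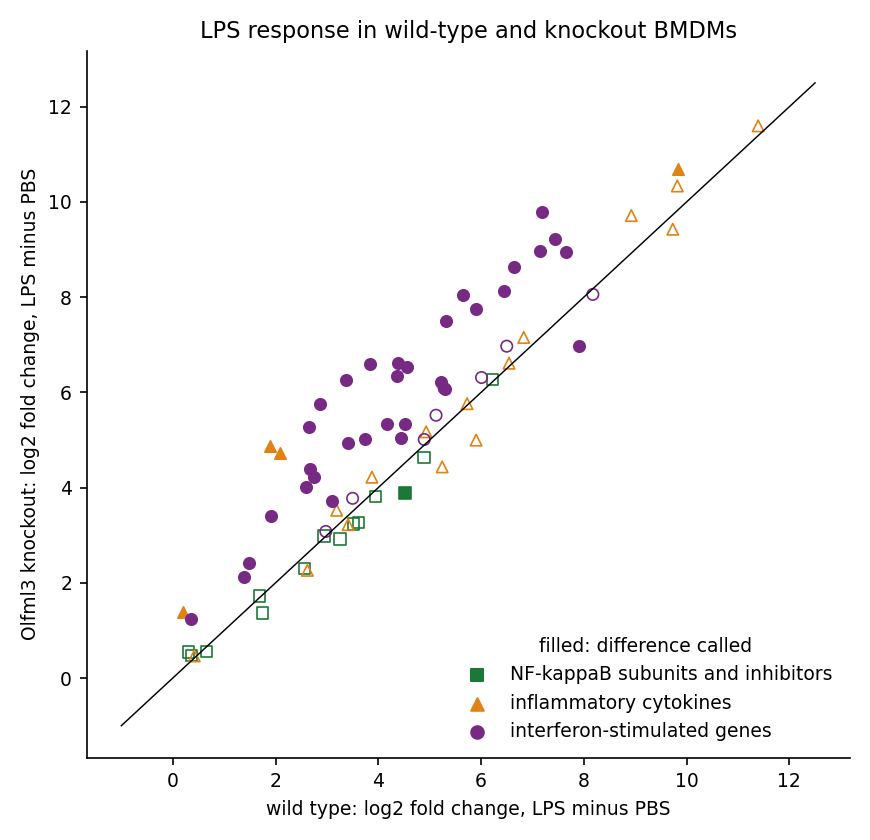
Log2 fold change with LPS in wild-type (x axis) and Olfml3 knockout BMDMs (y axis) for interferon-stimulated genes (circles), inflammatory cytokines (triangles) and NF-kappaB genes (squares); filled symbols differ between genotypes by the interaction test and the line marks equal change. Most circles lie above the line, and most squares and triangles near it.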

How the data were processed

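Poly(A) RNA of 24 libraries was sequenced by a commercial provider, and the authors deposited raw counts per gene and FPKM for each library. Wild-type BMDM libraries held 21881039 to 22467927 counts. The build is mm10 per the labels, whereas aligner, counting tool and strand use are not stated. The deposited FPKM are relative to all counts of a library and to exon length. Coordinates in the table did not match the given annotation and were not used. The table of RAW264.7 libraries, normalized separately, was not used.

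Size factors (median of ratios to the geometric mean over the 12 BMDM libraries) were computed from the counts, and FPKM were rescaled by them. The 26973 genes of 56691 with a value above 0 in any BMDM library were tested with limma 3.58.1 in R 4.3.3 on log2(scaled FPKM + 0.1), with 4 group means over the 12 BMDM libraries, 8 residual degrees of freedom and Benjamini-Hochberg adjustment over all genes tested. Calls needed at least 1.5-fold change with adjusted p below 0.05. The knockout response was compared as an interaction. edgeR 4.0.16 and DESeq2 1.42.0 on the counts, other scalings, filters, pseudocounts, a replicate block and the omission of each library were alternatives. Scripts were tested on simulated data.

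Groups followed titles. Members and gene lists were chosen with earlier results of these data known. Genes were named by rule, namely the 10 steepest rises and falls and the 5 largest gains and losses in level among called genes with a mean of at least 5 scaled FPKM, 3 members with the largest changes, the highest member and the highest member that did not pass in each list, the genes the study measured, and the 5 largest differences between genotypes in each direction. Further list members were named after their values were seen. Some genes of the rule are not reported here. Of 34 genes of the rule looked up, 25 had a RefSeq promoter window (GRCm38.p6) and 8 a motif, 5 of which are shown.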

Additional observations from a re-analysis of the deposited data

Results flagged for a closer look

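The LPS response of the genes named above was compared between wild-type and Olfml3 knockout BMDMs by the interaction term of the same fit, and 37 of them differed. Over all genes tested 2.65% differed, and among wild-type calls 6.87% did. Some genes were named for their large difference between genotypes, so the count of 37 says nothing about the named genes as a set. Values are differences of log2 fold changes, knockout minus wild type, and each passed the limma adjusted p threshold and the 1.5-fold threshold. The libraries of each genotype have their own PBS control.

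Among interferon-stimulated genes the response was more positive in knockout for Oasl2 (2.89), Irf7 (2.77), Rsad2 (1.77), Ifit2 (1.70), Stat2 (1.41), Cmpk2 (1.29), Ifi27l2a (0.88) and Irf9 (0.74). Chemokines of the same direction were Ccl5 (3.99) and the neutrophil attractants Cxcl1 (1.76), Cxcl3 (1.59) and Cxcl2 (1.496). Genes that fell in wild type and had a less negative response in knockout were Sesn1 (1.61), Cd300lb (1.48), Trib1 (0.92), Tfeb (0.92), Myc (0.86), Dusp4 (0.68), Abca1 (0.62) and Hmox1 (0.60). The other genes with a positive difference were Osm (1.19), Lcn2 (1.13), Edn1 (0.88), Il1b (0.86), Slc39a14 (0.81), Nlrc5 (0.73) and C3 (0.72).

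The response was more negative in knockout for the CXCR3 ligands Cxcl9 (-3.39) and Cxcl11 (-2.07), for the GTPase Iigp1 (-0.93) and for Irf8 (-1.94), a transcription factor of the myeloid lineage. The other negative differences were in Cd69 (-1.20), Tpx2 (-0.89), Rfc3 (-0.83), Fas (-0.83), Socs3 (-0.66) and Marcksl1 (-0.59). The cause of these differences was not tested. No group of wild-type BMDMs was large enough for a search for single outlying libraries, which needs 4 samples.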

How the results depend on the processing

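The LPS response of wild-type BMDMs gave 8461 calls, and between 6126 and 8966 under other pseudocounts, FPKM filters, an intensity trend, quantile normalization, the 6 wild-type libraries alone and the count tests of edgeR and DESeq2, except with a pseudocount of 1, which gave 5409. FPKM as deposited gave 10894 calls and TPM 11697, both above that range. Adjusted p alone, without the fold threshold, gave 12007 calls. Leaving out 1 of the 6 libraries gave 8126 to 8399. The difference between genotypes gave 714 calls, 419 with a pseudocount of 1, 1377 with adjusted p alone and 625 to 772 with 1 of 12 libraries left out. The cause of the drop with a pseudocount of 1 was not tested. Of the main calls, edgeR with RLE factors called 8035 (94.97%) in the same direction and DESeq2 7853 (92.8%).

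The labels number the replicates, but deviations of same-numbered libraries from their group means correlated between -0.0177 and 0.0852, so the numbers were not taken as pairs. With a replicate block 8401 genes were called for LPS and 612 for the difference between genotypes.

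The share of calls that were higher with LPS was 47.9%, 19.7% with FPKM as deposited, 19.4% with TPM, 42.5% with quantile normalization, 44.3% with TMM factors in edgeR and 54.5% with a pseudocount of 1. The scalings relative to all counts move every gene by a near constant amount, so genes of small change turned direction. As deposited these were Aldoa (-0.65), C1qb (-0.19), Ctsb (-0.47), Hprt (-0.56), Ifi27l2a (-0.45), Ikbkg (-0.43), Osm (-0.57), Pgk1 (-0.12), Pkm (-0.60), Sdha (-0.62), Sdhc (-0.45), Sdhd (-0.62), Ticam1 (-0.18) and Tpx2 (-0.035). With TPM they were Aldoa (-0.70), C1qb (-0.23), Cd74 (-0.019), Ctsb (-0.51), Hprt (-0.61), Ifi27l2a (-0.49), Ikbkg (-0.48), Osm (-0.63), Pgk1 (-0.16), Pkm (-0.65), Sdha (-0.66), Sdhc (-0.49), Sdhd (-0.66), Ticam1 (-0.22) and Tpx2 (-0.078). With quantile normalization they were Aldoa (-1.04), C1qb (-0.45), Cd74 (-0.20), Ctsb (-0.35), Hprt (-0.86), Ifi27l2a (-0.60), Pgk1 (-0.46), Pkm (-1.01), Sdha (-0.72), Sdhc (-0.42) and Sdhd (-0.76). Calls of B2m, Dld, H2-Ab1 and Rfc3 were lost both as deposited and with TPM, that of Irf9 with TPM (0.55) and that of Spi1 with quantile normalization (0.49). C1qb (0.52) and Ticam1 (0.53) lost theirs with TMM factors.

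Library totals of 21881039 to 22467927 counts leave genes of a few counts, such as Ifnb1, Il12a and Il23a with PBS, with imprecise fold changes. Without spiked RNA a change in total RNA per cell cannot be told apart from a change in composition.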

Other observations

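Short genes were called higher more often than long ones. Among genes at 1 scaled FPKM or more, the 2783 with the shortest exon length (45 to 2303 bases) had a median log2 fold change of 0.32, with 31.3% called higher and 16.3% lower. The longer genes, in 3 groups of nearly equal size, had medians between -0.052 and -0.0069, with 25.6% to 26.7% called higher and 27.4% to 29.6% lower. The part of RNA quality or of the kinds of genes in each group was not tested.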
